A study of Homo sapiens with 6 samples.

Results

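The mRNAs of the translation initiation and elongation factors were examined in A549 cells, an established human lung adenocarcinoma line, with and without the MIR21 gene. Members were chosen by name alone: protein-coding rows whose symbol starts with EEF, or with EIF followed by 1, 2, 3, 5 or 6. The name pattern matched 52 rows, and 7 enzymes that act on the factors or serve selenocysteine insertion were left out (EIF2AK1 to EIF2AK4, EEF2K, EEF2KMT and EEFSEC). This left 45 of the 58174 genes in the table. The eIF4 genes were not included. Parental A549 cells (Ctrl) were compared with MIR21-deleted A549 cells (MIR21-KO), with 3 polyA RNA-seq libraries per group. Both groups were harvested 48 h after seeding, and the labels name no other treatment. MIR21-KO cells had been derived from single sorted cells after Cas9 with paired guides had deleted a stretch of the MIR21 locus, while Ctrl cells were not cloned. How many clones stand behind the 3 MIR21-KO libraries is not given in the sources used here, so differences of a clone and of the deletion cannot be told apart. The labels do not say whether the libraries of a group came from separate cultures, and p-values measure only the spread between these libraries.

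Translation starts when a small ribosomal subunit, loaded with eIF1, eIF1A, eIF3, eIF5 and the ternary complex of eIF2, GTP and initiator tRNA, scans an mRNA for its start codon. The exchange factor eIF2B recharges eIF2 with GTP, eIF5B joins the large subunit, and eIF6 keeps free large subunits apart from small ones. In elongation, eEF1A brings aminoacyl-tRNA, the eEF1B subunits recharge eEF1A, eEF2 moves the ribosome by a codon, and eIF5A relieves stalls at difficult peptide bonds. Many mRNAs of this machinery are terminal oligopyrimidine (TOP) mRNAs, which begin with a C and an unbroken run of pyrimidines and whose translation follows growth signals.

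Values are FPKM, fragments scaled to gene length and to a library size set by the authors. The libraries held 10631667 to 14345209 reads, recovered from the FPKM, so that 1 read per kb of gene stood for 0.0731 to 0.0930 FPKM, depending on the library. The MIR21-KO libraries differed more among themselves than the Ctrl libraries did: chi-square over its degrees of freedom, computed over genes, reached 7.05 to 29.6 for the MIR21-KO pairs but 2.58 to 4.91 for the Ctrl pairs. Epithelial markers were present, with KRT8 at 351.7 to 498.8 and KRT18 at 335.5 to 688.1 FPKM, while EPCAM stayed at or under 1.65 FPKM. Their summed level was 1684 to 1807 FPKM in Ctrl and 1217 to 1745 FPKM in MIR21-KO, and CDH1 was at 7.63 to 8.79 FPKM in Ctrl and 2.72 to 3.02 FPKM in MIR21-KO. Of 6 markers of other cell types, PTPRC, CD3E, PECAM1 and VWF stayed at or under 0.0240 FPKM in every library, and COL3A1 was at 0.0577 to 0.191 FPKM in Ctrl and 0.540 to 0.634 FPKM in MIR21-KO. COL1A1 was at 3.28 to 3.62 FPKM in Ctrl and 3.33 to 4.51 FPKM in MIR21-KO. The part of these markers in the results was not tested. In bulk libraries, fewer cells with an mRNA and less of it per cell cannot be told apart.

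Start sites of members are shown first, because fold changes are set beside them further on. RefSeq (GRCh38.p14) gave a start for 34 members. A C followed directly by 4 or more pyrimidines at the annotated first base, on the strand of the gene, was found for 10 of them (29.4%), for 1104 of 27305 promoters of the same length (4.04%) and for 43 of 63 cytosolic ribosomal protein genes (68.3%). Each window below holds the 15 bases before and the 15 bases from the start, 5′ to 3′, and capitals mark the pyrimidine run.
EEF1A1 (chr6:73521018-73521047, minus strand): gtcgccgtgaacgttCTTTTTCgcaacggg
EEF2 (chr19:3985449-3985478, minus strand): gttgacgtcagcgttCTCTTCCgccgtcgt
EIF3F (chr11:7987322-7987351, plus strand): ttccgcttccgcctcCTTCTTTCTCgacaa
EIF2D (chr1:206612451-206612480, minus strand): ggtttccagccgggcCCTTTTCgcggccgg
EIF3K (chr19:38619173-38619202, plus strand): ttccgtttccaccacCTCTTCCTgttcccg
EIF2S3 (chrX:24054941-24054970, plus strand): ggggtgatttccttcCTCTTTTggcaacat
EIF2S3B (chr12:10505875-10505904, plus strand): ggggtgactttcttcCTCTTTTggcaacat
The last of these is listed as EIF2S3L in the deposited table, and it is a retrogene of EIF2S3. The other 3 members with such a start were EIF2A, EIF3D and EIF3M. Of the 10 members with the run, 6 had a log2 fold change below 0 in MIR21-KO over Ctrl. For contrast, the starts of 3 members picked from those that fell in MIR21-KO cells hold no such run. As they were picked by outcome, they do not show how start and direction go together.
EIF2S1 (chr14:67360313-67360342, plus strand): gcgaggaggttccgcatgcgcggtggagtg
EIF3B (chr7:2354812-2354841, plus strand): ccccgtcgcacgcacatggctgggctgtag
EIF3J (chr15:44537132-44537161, plus strand): cacctccgccgtgctaactcctcgctagct

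The deleted miRNA is shown next, with its seed (bases 2 to 8) in capitals, because miRNAs act on 3′ UTRs that match their seed.
hsa-miR-21-5p (chr17:59841273-59841294, plus strand): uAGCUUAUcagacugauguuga
The longest annotated 3′ UTR (GENCODE 29) was searched on the strand of the transcript for ATAAGCTA (an 8mer), ATAAGCT and TAAGCTA, the latter 2 being contained in the 8mer and counted only outside it. Among the 42 tested members, 3 held a match (7.14%), against 1765 of 11657 tested protein-coding genes (15.1%). Members had shorter 3′ UTRs, with a median of 909 bases against 1621 bases. The 8mers lay in the 3′ UTRs of EIF2S1 and EIF1AX, and capitals mark the match.
EIF2S1 (chr14:67384172-67384179, plus strand): tattggaataATAAGCTActtgccttga
EIF1AX (chrX:20126150-20126157, minus strand): atacagtgctATAAGCTAtgcacagaaa
EIF1AX also held TAAGCTA at 2 further places, and EIF5 held it once. All 3 of these mRNAs had lower values in MIR21-KO cells, with log2 fold changes of -0.53 for EIF2S1, -0.29 for EIF1AX and -0.21 for EIF5. Of these, only EIF2S1 passed the test at an FDR under 0.01.

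To see how the factors differ after loss of MIR21, fold changes of MIR21-KO over Ctrl were fitted for every gene that averaged 0.5 FPKM or more, on log2(FPKM + 0.1), which slightly understates changes of low genes. Of the 45 members, 42 were tested, with means of 2.35 to 1154 FPKM and at least 55 reads in every library. Limma called 6 of the 42 (14.3%) at an FDR under 0.01, where 16.0% of all 16006 tested genes were called. EEF2 was higher in MIR21-KO cells, and EEF1E1, EIF2S1, EIF3B, EIF3J and EIF5AL1 were lower. By direction, 2.38% of members were called higher and 11.9% lower, against 7.66% and 8.38% of all genes. Since 39 of the 42 members averaged at least 5 FPKM, the 7551 genes above that level are the closer background: 22.1% of them were called, 8.89% higher and 13.2% lower. The median log2 fold change was -0.17 over the members and -0.02 over all genes tested, and 29 of the 42 members (69.0%) had a fold change below 0, as did 51.5% of all genes. Over the genes above 5 FPKM the median was -0.08 and 58.0% were below 0. The Ctrl and MIR21-KO values did not overlap for 23 members (54.8%), 18 of them lower and 5 higher, where 48.1% of all genes had groups that did not overlap (25.2% lower and 22.8% higher), as did 56.7% of those above 5 FPKM. EIF2B3 and EIF5B lay just outside the threshold, with FDRs of 0.01001 and 0.01002, and EIF5AL1 and EEF2 just inside it, with FDRs of 0.00481 and 0.00519. At an FDR under 0.05, 12 members were lower and 3 higher, where 32.0% of all genes passed (16.8% lower and 15.2% higher) and 41.6% of those above 5 FPKM. The calls rested on the full set of libraries. EIF3J was not called without MIR21-KO replicate 2, EEF1E1 was not called without Ctrl replicate 2 or 3, and the other 4 were not called without any one of the Ctrl libraries or without MIR21-KO replicate 2. With the replicate number as a block, 0 members were called by limma, where 4.07% of all genes were called. In that fit 16 members had an unadjusted p under 0.05, but the share of all genes at that p was not computed for it.

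**Figure D1:**
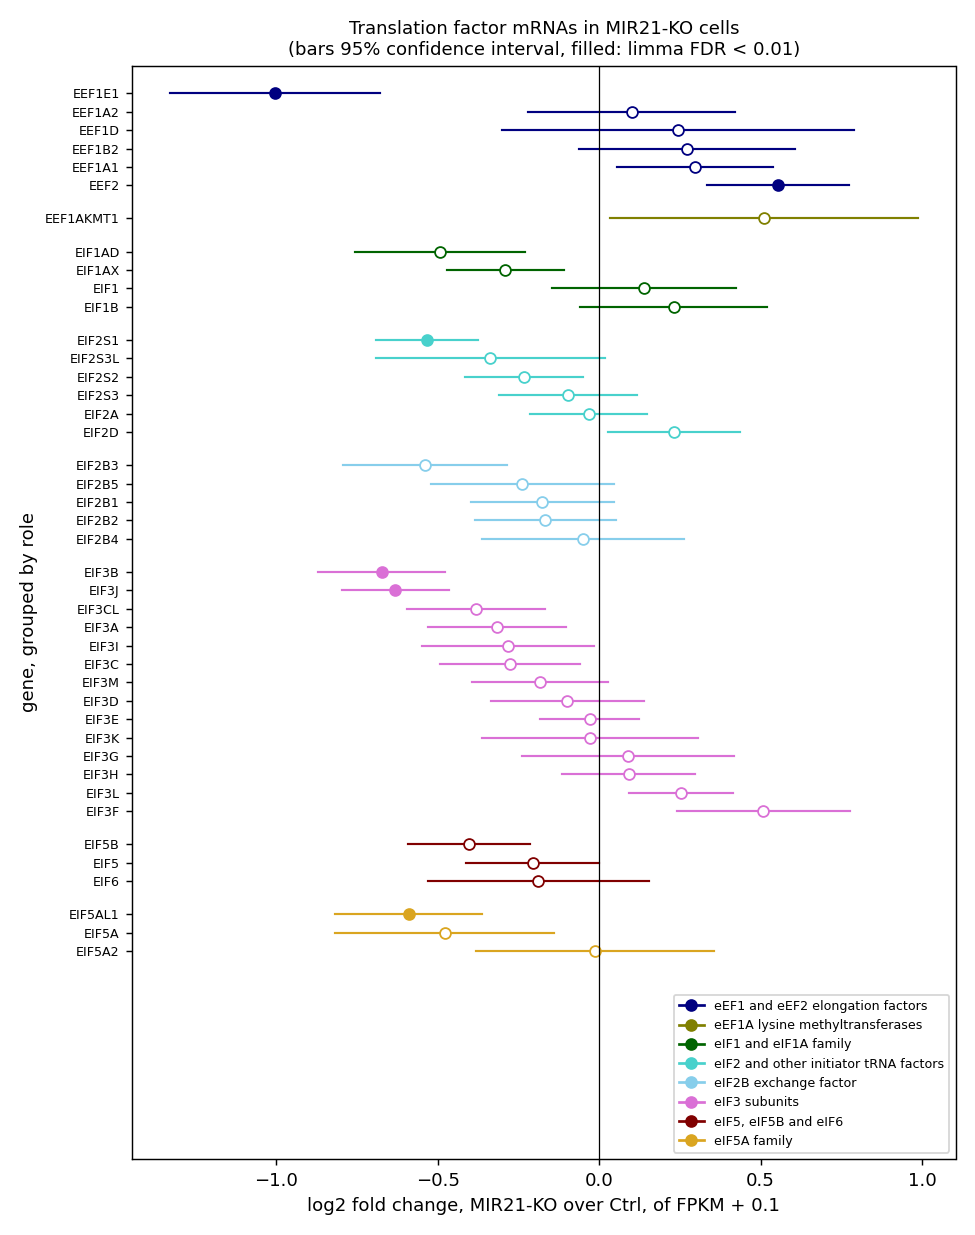
Log2 fold change of MIR21-KO over Ctrl (x axis) for each of the 42 tested members (y axis), coloured by role, with 95% confidence intervals from limma; filled points have an FDR under 0.01. EEF2 is the filled point on the right, and EEF1E1, EIF2S1, EIF3B, EIF3J and EIF5AL1 are the filled points on the left.

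The elongation factors held the most abundant member and the only one called higher. EEF2 (ENSG00000167658, chr19:3976056-3985469, minus strand), the GTPase that moves the ribosome along the mRNA, was at 368.9, 365.9 and 365.8 FPKM in Ctrl replicates 1 to 3 and at 565.0, 559.7 and 494.0 FPKM in MIR21-KO replicates 1 to 3. The lowest MIR21-KO library lay well above the highest Ctrl library. This was a 1.47-fold higher level (log2 fold change 0.55 ± 0.092 SE, FDR = 0.00519, limma). EEF1A1 (ENSG00000156508), the main carrier of aminoacyl-tRNA, was at 1024, 1033 and 1045 FPKM in Ctrl and at 1365, 1289 and 1166 FPKM in MIR21-KO. Its groups did not overlap either, but the MIR21-KO libraries spread more than the Ctrl libraries, and the log2 fold change of 0.30 (95% confidence interval 0.06 to 0.54) was not called (FDR = 0.0652). Without MIR21-KO replicate 3, EEF1A1 was called, with an FDR of 0.00763. Pseudogenes share sequence with it: 23.2% of the 100-base windows of its longest transcript occur in transcripts of other genes, so its reads may be split among them.

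The remaining elongation factors were not called as higher. EEF1B2, the exchange subunit for eEF1A, was at 189.4 to 223.8 FPKM in Ctrl and 213.9 to 296.7 FPKM in MIR21-KO, and EEF1D, a further exchange subunit, at 25.4 to 34.3 and 24.8 to 45.8 FPKM, and in both cases the groups overlapped. Without MIR21-KO replicate 1 the log2 fold change of EEF1D was 0.04 in place of 0.24. EEF1A2, the paralog of EEF1A1 that is otherwise known from muscle and neurons, was listed at 133.9 to 148.0 FPKM in Ctrl and 127.7 to 180.7 FPKM in MIR21-KO. These values rest on a deposited length of 2006 bases, where GENCODE 29 has 4910 exon bases, a ratio of 2.45. How many reads the longer annotation would hold was not computed, so the level on it is not known. On the deposited lengths EEF1A2 made up 11.6%, 12.5% and 11.9% of the summed FPKM of EEF1A1 and EEF1A2 in Ctrl and 11.7%, 10.3% and 9.87% in MIR21-KO. The means of 12.0% and 10.6% differed by -1.35 percentage points (p = 0.2, exact permutation test, two-sided; 0.3 adjusted over 3 paralog pairs), where 3 against 3 libraries cannot go below 0.1. Of the recovered reads of both genes, EEF1A2 held 4.39% in Ctrl and 3.86% in MIR21-KO, a difference of -0.531 points. The gene EEF1G, a structural subunit of the same complex, was listed at 0 FPKM in every library. On the annotation 99.9% of its exon bases are shared on the same strand with ENSG00000255508, which itself had 4 to 8 reads per library, so the listed 0 says nothing about EEF1G. The readthrough gene EEF1E1.BLOC1S5, whose exon bases all lie in other genes, was at 0 too. With EIF1AY, whose level is not given here, these were the 3 members that were not tested.

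EEF1E1 (ENSG00000124802, chr6:8073360-8102578, minus strand) was the member with the largest fold change. Despite its name it is a scaffold of the multi-tRNA synthetase complex and no elongation factor of the ribosome. It fell from 7.05, 8.52 and 8.15 FPKM in Ctrl to 4.22, 3.26 and 4.24 FPKM in MIR21-KO. The fold was 0.498 (log2 fold change -1.005 ± 0.137 SE, FDR = 0.00261, limma), resting on 84 to 235 reads per library. A share of 18.7% of its exon bases is also annotated to the readthrough gene. EEF1AKMT1, a methyltransferase for eEF1A, was at 3.29 to 5.24 FPKM in Ctrl and 4.84 to 6.74 FPKM in MIR21-KO, and these ranges overlapped (FDR = 0.0964).

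**Figure D2:**
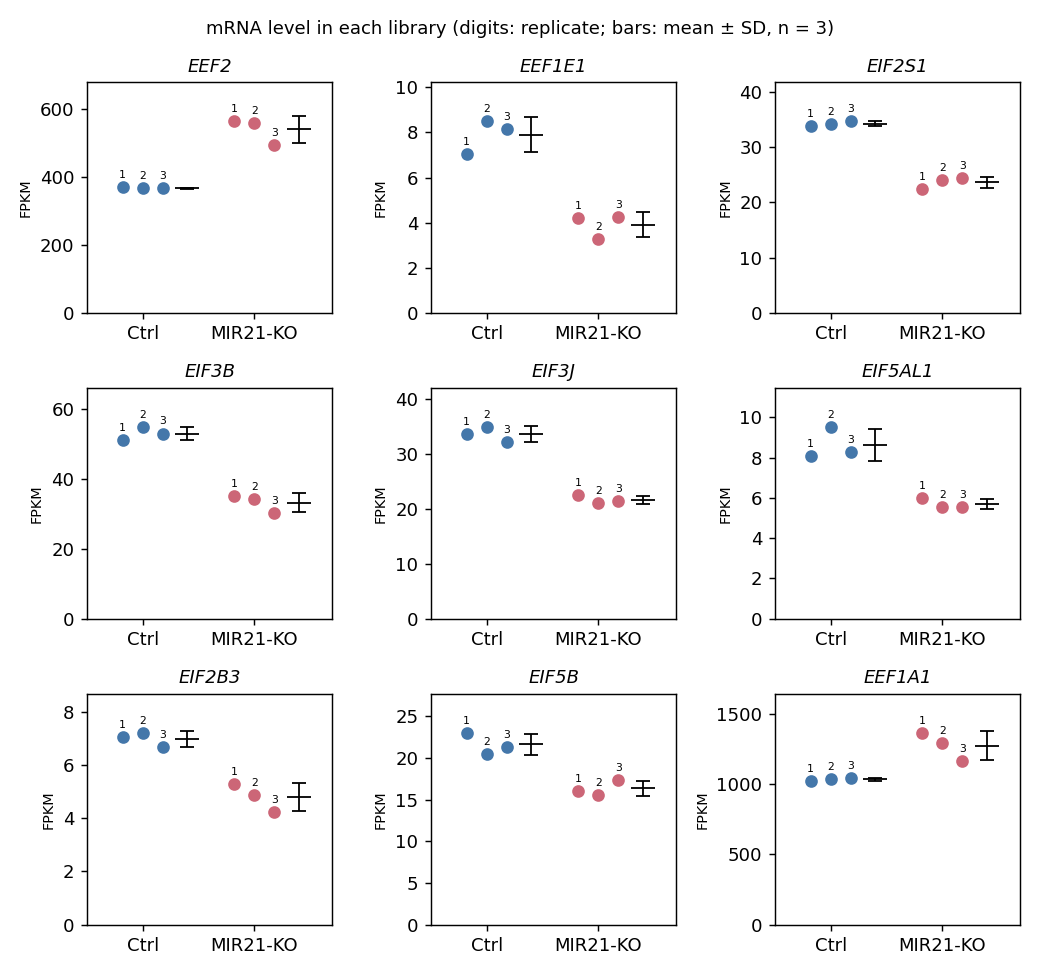
FPKM (y axis, from 0) in each Ctrl and MIR21-KO library (x axis) for the 6 called members, for EIF2B3 and EIF5B just outside the threshold and for EEF1A1; digits give the replicate and black bars the mean ± SD (n = 3). In each panel the 3 MIR21-KO points lie all above or all below the 3 Ctrl points.

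The factors that bind at the start codon were not called. EIF1, which guards start codon choice, was at 132.0 to 146.1 FPKM in Ctrl and 132.4 to 176.5 FPKM in MIR21-KO, and its close paralog EIF1B at 13.2 to 15.2 and 14.9 to 19.8 FPKM. EIF1B made up 9.43% ± 0.352 (SD) of the pair in Ctrl and 10.0% ± 1.18 in MIR21-KO (n = 3 each), a difference of 0.615 percentage points (p = 0.5, exact permutation test, two-sided). EIF1AX, the scanning factor with the miR-21-5p 8mer shown above, had 46.6, 45.5 and 43.8 FPKM in Ctrl and 34.8, 36.8 and 39.6 FPKM in MIR21-KO. Its groups did not overlap, and all MIR21-KO values were the lower ones (FDR = 0.0279). Without MIR21-KO replicate 3 its FDR was 0.0076, and with the trends of each library on GC content and gene length removed its log2 fold change was -0.10 (FDR = 0.175). EIF1AD, which carries an eIF1A-like domain, was at 10.6 to 13.4 FPKM in Ctrl and 8.12 to 9.31 FPKM in MIR21-KO (FDR = 0.0160).

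Within eIF2, the 3 subunits had unequal fold changes. EIF2S1 (ENSG00000134001, chr14:67359997-67386516, plus strand) encodes the alpha subunit, whose phosphorylation lowers initiation under stress. It fell from 33.8, 34.2 and 34.8 FPKM in Ctrl to 22.5, 24.1 and 24.3 FPKM in MIR21-KO, with little spread in either group. The fold was 0.691 (log2 fold change -0.53 ± 0.067 SE, FDR = 0.00181, limma). Its miR-21-5p 8mer is shown above. EIF2S2, the beta subunit, was at 85.2, 88.0 and 87.2 FPKM in Ctrl and 76.3, 76.7 and 68.6 FPKM in MIR21-KO, without overlap (FDR = 0.0578, log2 fold change -0.23). EIF2S3, the GTP-binding gamma subunit, was at 110.2, 102.4 and 103.9 FPKM in Ctrl and 90.1, 99.0 and 107.3 FPKM in MIR21-KO, with overlapping groups (log2 fold change -0.10, 95% confidence interval -0.31 to 0.12). In FPKM, which are per gene length, the alpha subunit thus had the lowest level of the 3 in every library. Differences between the subunits in their fold change were not tested. EIF2S3L had 2.36 to 4.03 FPKM, and 11.0% of its 100-base windows occur in EIF2S3. The alternative tRNA carriers EIF2A and EIF2D were not called: EIF2A was at 20.8 to 22.8 FPKM over all 6 libraries, and EIF2D at 5.93 to 6.24 FPKM in Ctrl and 6.59 to 7.46 FPKM in MIR21-KO.

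The log2 fold change was below 0 for all 5 eIF2B subunits, as for 51.5% of all genes and 58.0% of those above 5 FPKM. Limma called 0 of the 5, where 16.0% and 22.1% of these backgrounds were called. An unadjusted p under 0.05 was found for 1 (20.0%), against 43.2% and 52.8%. EIF2B3, the gamma subunit of the catalytic part, was at 7.07, 7.22 and 6.67 FPKM in Ctrl and 5.27, 4.89 and 4.23 FPKM in MIR21-KO. Its groups did not overlap (log2 fold change -0.54 ± 0.107 SE, FDR = 0.01001, limma), and it was called under 7 of 16 alternatives. EIF2B5, the catalytic epsilon subunit, was at 7.66, 7.66 and 7.10 FPKM in Ctrl and 7.26, 6.37 and 5.45 FPKM in MIR21-KO, with overlap. Of the regulatory subunits, EIF2B1 was at 15.9, 17.6 and 16.3 FPKM in Ctrl and 16.2, 14.6 and 13.4 FPKM in MIR21-KO. EIF2B2 was at 10.2, 10.1 and 8.90 FPKM in Ctrl and 9.29, 8.20 and 8.42 FPKM in MIR21-KO. The remaining subunit EIF2B4 was at 9.09, 9.82 and 10.3 FPKM in Ctrl and 10.8, 9.73 and 7.81 FPKM in MIR21-KO, so that its MIR21-KO libraries lay on both sides of the Ctrl values.

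The eIF3 complex, the scaffold of initiation, was represented by 14 genes, and its mRNAs did not share one direction. Limma called 2 of them lower and 0 higher (4 lower and 2 higher at an FDR under 0.05). The shares called, 14.3% and 42.9%, stand against 16.0% and 32.0% of all genes and 22.1% and 41.6% of those above 5 FPKM. The median log2 fold change over the complex was -0.14, and 10 of the 14 (71.4%) were below 0, against 51.5% of all genes and 58.0% of those above 5 FPKM. The groups did not overlap for 7 lower (50.0%) and 2 higher genes (14.3%). The shares were 25.2% and 22.8% of all genes, and 34.9% and 21.8% of those above 5 FPKM. EIF3B (ENSG00000106263, chr7:2354086-2380745, plus strand), a core scaffold subunit, fell from 51.1, 55.0 and 53.0 FPKM in Ctrl to 35.2, 34.2 and 30.3 FPKM in MIR21-KO (log2 fold change -0.67 ± 0.083 SE, FDR = 0.00173, limma). EIF3J (ENSG00000104131, chr15:44537057-44563029, plus strand), a loosely bound subunit near the mRNA channel, fell from 33.7, 35.0 and 32.1 to 22.5, 21.0 and 21.5 FPKM (log2 fold change -0.63 ± 0.069 SE, FDR = 0.00112, limma). Both mRNAs showed little spread within a group and were 0.627 and 0.645 times their Ctrl level. EIF3A, the largest subunit, was at 70.8 to 76.2 FPKM in Ctrl and 52.8 to 62.4 FPKM in MIR21-KO without overlap (FDR = 0.0355).

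On the other side, EIF3F, a subunit of the outer module, was at 21.0, 22.0 and 21.9 FPKM in Ctrl and 35.8, 30.6 and 26.8 FPKM in MIR21-KO. All MIR21-KO libraries were above all Ctrl libraries, but they differed among themselves (log2 fold change 0.51 ± 0.112 SE, FDR = 0.0151, limma), and without MIR21-KO replicate 3 the FDR was 0.00313. EIF3L was at 26.7 to 28.4 FPKM in Ctrl and 31.7 to 34.2 FPKM in MIR21-KO (FDR = 0.0292), and 41.1% of its exon bases are also annotated to another gene on the same strand. EIF3E and EIF3H, like EIF3F known as TOP mRNAs, had overlapping groups with log2 fold changes of -0.03 and 0.09. The groups of EIF3D, EIF3G and EIF3K overlapped too. Those of EIF3M were barely apart, with the highest MIR21-KO library at 28.26 and the lowest Ctrl library at 28.30 FPKM, and its log2 fold change of -0.18 was -0.02 once GC and length trends were removed. EIF3I, the most abundant subunit mRNA by mean Ctrl FPKM, was at 143.7 to 152.4 FPKM in Ctrl and 106.4 to 139.5 FPKM in MIR21-KO, without overlap (FDR = 0.0994). The near-identical genes EIF3C and EIF3CL are uncertain, since 97.1% of the windows of EIF3CL occur in EIF3C. In FPKM, both had all MIR21-KO values below all Ctrl values. Their log2 fold changes were -0.28 for EIF3C (FDR = 0.0575, limma) and -0.38 for EIF3CL (FDR = 0.0187, limma). EIF3CL was called under 4 of 16 alternatives, and EIF3C under 0. Together they held 4728 to 5607 recovered reads in Ctrl libraries and 4058 to 4790 in MIR21-KO libraries, not scaled to library size.

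**Figure D3:**
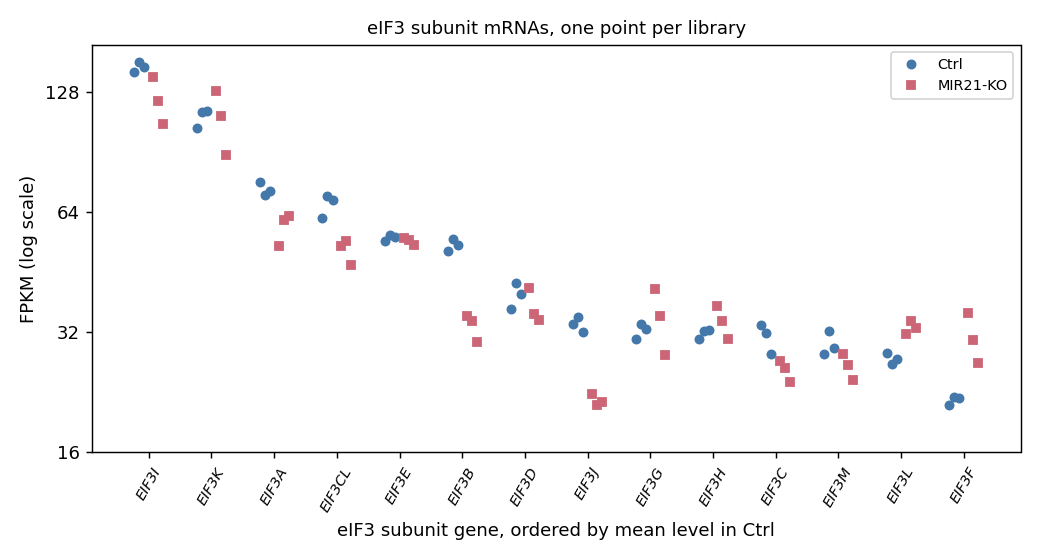
FPKM on a log scale (y axis) of the 14 eIF3 subunit genes, ordered by their mean Ctrl level (x axis), with 1 point per library. The MIR21-KO points of EIF3A, EIF3B, EIF3C, EIF3CL, EIF3I, EIF3J and EIF3M lie below the Ctrl points, those of EIF3M only barely. Those of EIF3F and EIF3L lie above, and those of EIF3D, EIF3E, EIF3G, EIF3H and EIF3K overlap the Ctrl points.

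Of the factors that follow start codon recognition, EIF5B, the GTPase of subunit joining, was at 23.0, 20.5 and 21.3 FPKM in Ctrl and 16.0, 15.6 and 17.4 FPKM in MIR21-KO. The groups did not overlap (log2 fold change -0.40 ± 0.080 SE, FDR = 0.01002, limma), but the log2 fold change was -0.25 once the GC and length trends were removed. EIF5, which triggers GTP hydrolysis on eIF2, was at 38.5 to 40.7 FPKM in Ctrl and 31.1 to 37.4 FPKM in MIR21-KO (FDR = 0.115), and its log2 fold change of -0.21 was -0.09 with those trends removed. EIF6 was at 91.4 to 99.5 FPKM in Ctrl and 66.5 to 96.0 FPKM in MIR21-KO, with MIR21-KO replicate 3 the lowest. Its log2 fold change was -0.19, and -0.03 without that library. With the trends removed it was -0.31 and was called (FDR = 0.00608).

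EIF5A, the factor that carries the hypusine modification, had the second highest mean level among the members in Ctrl. It was at 500.9, 544.4 and 540.0 FPKM in Ctrl and 450.9, 383.1 and 314.7 FPKM in MIR21-KO. All MIR21-KO values were below all Ctrl values, but their spread was wide (log2 fold change -0.48, 95% confidence interval -0.82 to -0.14, FDR = 0.0425, limma). With the GC and length trends removed, it was -0.57 with an FDR of 0.0004. Its intronless relative EIF5AL1 (ENSG00000253626, chr10:79512601-79516440, plus strand) fell from 8.08, 9.54 and 8.26 to 5.98, 5.53 and 5.54 FPKM (log2 fold change -0.59 ± 0.096 SE, FDR = 0.00481, limma). Of the EIF5A windows, 10.3% also occur in EIF5AL1, so reads may be split between them, and the part of this in the call of EIF5AL1 was not tested. EIF5A2, the paralog known from testis and brain and from some tumours, was at 2.63, 2.03 and 2.42 FPKM in Ctrl and 2.09, 2.25 and 2.67 FPKM in MIR21-KO. It made up 0.446% ± 0.0752 (SD) of the EIF5A and EIF5A2 sum in Ctrl and 0.629% ± 0.195 in MIR21-KO (n = 3 each; p = 0.2, exact permutation test, two-sided).

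The start sequences were then set beside the fold changes. This split was made after the values had been seen and has no test. Among the 10 members with the pyrimidine run, 4 had MIR21-KO values all above Ctrl (EEF2, EIF3F, EEF1A1 and EIF2D) and 2 all below (EIF2S3L and EIF3M), with a median log2 fold change of -0.03. Among the 22 tested members whose start lacked it, 13 (59.1%) had MIR21-KO values all below Ctrl and 0 all above, with a median of -0.28. All 5 lower calls were among them (22.7%, against 13.2% of genes above 5 FPKM and 8.38% of all genes). Of all genes above 5 FPKM, 34.9% lay all below and 21.8% all above. A start of this kind is not the same as being a known TOP mRNA: the known TOP mRNA EEF1B2 lacked it. Of the 7 tested members on a list of TOP mRNAs, 6 had a log2 fold change above 0, with a median of 0.27. The 1 call among them is a share of 14.3%, against 22.1% of genes above 5 FPKM and 16.0% of all genes. The 10 tested members without a RefSeq start in the table had a median of 0.09.

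**Figure D4:**
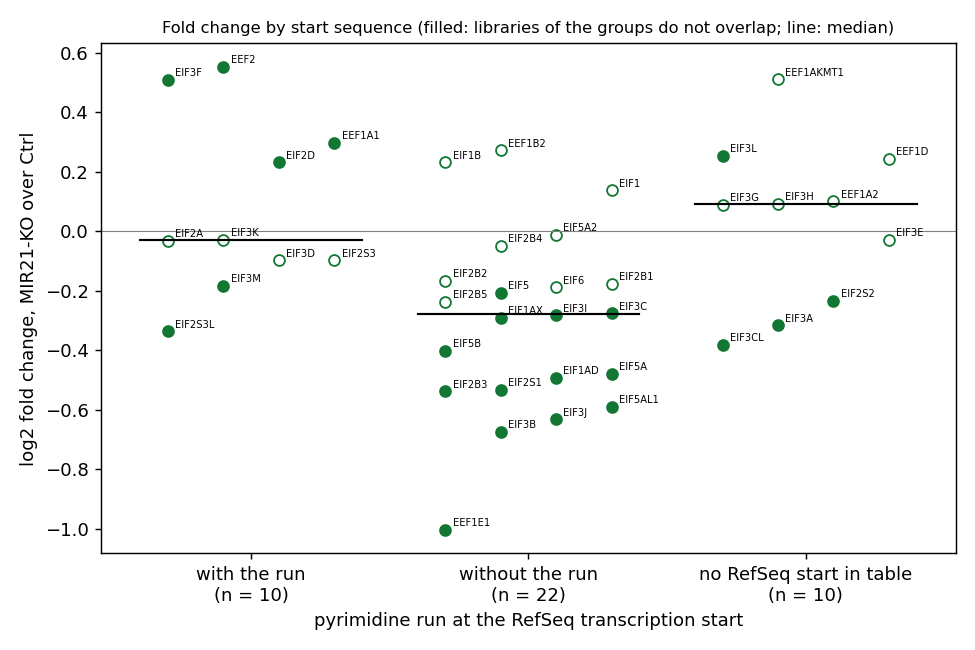
Log2 fold change of MIR21-KO over Ctrl (y axis) of the 42 tested members by whether the RefSeq start holds a C followed by 4 or more pyrimidines (x axis); filled points have groups that do not overlap and lines are medians. Filled points above 0 are EEF2, EIF3F, EEF1A1 and EIF2D among members with the run, none among members without it, and EIF3L among members without a listed start.

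Cytosolic ribosomal protein mRNAs, the largest class of TOP mRNAs, were measured in the same libraries for comparison. Of 79 genes, 73 had a log2 fold change above 0 with a median of 0.32, but limma called 1 higher (RPL28, 0.89, FDR = 0.00826) and 0 lower, with 23 higher and 1 lower at an unadjusted p under 0.05. Their share called was 1.27%, against 16.0% of all genes and 22.1% of those above 5 FPKM. At an unadjusted p under 0.05 the shares were 30.4%, 43.2% and 52.8%. By direction, 29.1% were higher and 1.27% lower at that p, against 20.7% and 22.5% of all genes. Of genes above 5 FPKM, 20.7% were higher and 32.1% lower. A log2 fold change below 0 was found for 7.59% of the 79, for 51.5% of all genes and for 58.0% of those above 5 FPKM. The lowest log2 fold change was that of RPL17, -0.47, which was also the 1 lower gene at that p. It was listed at 7.77 to 8.94 FPKM in Ctrl and 5.35 to 7.71 FPKM in MIR21-KO, which is low among these genes. Whether its reads are shared with other genes was not tested. RPLP0, a widely used reference mRNA, had a log2 fold change of 0.62 (FDR = 0.0182). The summed FPKM of the 79 genes was 23516, 26298 and 25143 in Ctrl and 39241, 32477 and 25258 in MIR21-KO, so MIR21-KO replicate 3 lay within the Ctrl range. Without MIR21-KO replicate 3, 28 of the 79 were called, where the share of all genes called rose to 21.2%. EEF2, EEF1A1 and EIF3F also had their lowest MIR21-KO value in replicate 3. This was not particular to them. Members that were lower in MIR21-KO, such as EIF5A, EIF3B, EIF2B3 and EIF3I, had their lowest value there too, while EIF2S1, EIF3J and others did not. The part of the library in these results was not tested.

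The other genes of the pathway comprised 22 genes for termination, modification of the factors and their regulation. Limma called 5 of them lower and 0 higher (22.7%, against 16.0% of all genes and 22.1% of those above 5 FPKM), so the share was near that of well expressed genes. At an unadjusted p under 0.05, 3 were higher and 8 lower (50.0%, against 43.2% of all genes and 52.8% of those above 5 FPKM). The 3 lower release and recycling factors were GSPT1, ETF1 and ABCE1. GSPT1, the GTPase of termination, fell from 35.5, 34.3 and 34.2 FPKM in Ctrl to 18.1, 18.8 and 20.4 FPKM in MIR21-KO (log2 fold change -0.86 ± 0.073 SE, FDR = 0.00043, limma). All 16 alternatives called it. ETF1, which reads the stop codon, fell from 54.9 to 57.6 FPKM in Ctrl to 35.0 to 38.6 FPKM in MIR21-KO (FDR = 0.00124, log2 fold change -0.64). ABCE1, which splits ribosomes after termination, fell from 23.7 to 27.2 FPKM to 12.7 to 16.7 FPKM (log2 fold change -0.79, FDR = 0.00347). The GSPT1 paralog GSPT2 had 6.34 to 6.50 FPKM in Ctrl and 7.31 to 8.60 FPKM in MIR21-KO (FDR = 0.0325). DPH2 and DPH3, which help to make the diphthamide residue of eEF2, fell too, with log2 fold changes of -0.56 (FDR = 0.00937) and -0.43 (FDR = 0.00889). Of the 6 eIF2 kinases and phosphatase subunits, and of the enzymes of hypusine and the selenocysteine factors, 0 were called by limma. Of the former 6, 4 had an unadjusted p under 0.05, 2 of them higher and 2 lower. This is 66.7%, against 43.2% of all genes and 52.8% of those above 5 FPKM. ABCE1 was not called without any one of the Ctrl libraries or without MIR21-KO replicate 2, ETF1 without Ctrl replicate 1 or 3 or MIR21-KO replicate 2, and DPH2 and DPH3 each lost their call without any of 5 libraries. DPH3 was called under 4 of 16 alternatives, and its log2 fold change was -0.28 (FDR = 0.0113) once GC and length trends were removed.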

How the data were processed

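PolyA RNA-seq libraries of A549 cells were analysed, 3 of Ctrl and 3 of MIR21-KO cells, with groups and replicate numbers from the sample titles. The deposited table lists 58174 genes, their lengths in bases and an FPKM per library. The authors' log2 fold changes, p-values and FDRs in the same deposited table were not used. For the work of the authors, the submitters' processing notes name cutadapt 1.14, HISAT2 2.1.0, SAMtools 1.5, featureCounts 1.5.3, edgeR 3.18.1 and build hg38. The annotation, the use of strand and the treatment of shared reads are not given in the sources used here. FPKM times length gave whole reads for 100% of values (tolerance 0.01 reads).

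The 16006 genes that averaged 0.5 FPKM or more entered a limma 3.58.1 fit (R 4.3.3, trend and robust) of log2(FPKM + 0.1), without covariates, and two-sided p-values were adjusted by Benjamini-Hochberg over all of them to FDRs, with calls under 0.01. Members, lists and alternatives were chosen with earlier results of these data known. All members are named, with values in every library for called members, EEF1A1, EEF2, eIF2, eIF2B and EIF5A, and of other genes those called, RPLP0 and the extremes of the ribosomal proteins; further values were added after seeing the data. Alternatives were leaving out each library, a replicate block, other pseudocounts, filters and scalings, voom on recovered reads, removal of GC and length trends, plain limma and an FDR of 0.05. In simulated libraries of these depths, 179 of 200 genes changed 2-fold among 16006 were recovered with 6 false calls. The changed genes were drawn from those above 5 FPKM, and every gene had the same dispersion in both groups. The wider spread among the MIR21-KO libraries and changes under 2-fold were not simulated, so these rates need not hold for the real data. Gene identifiers matched GENCODE 29 (GRCh38) for 57836 genes, and for 42 of 45 members the deposited length equalled the annotated exon length (not for EEF1A2, EIF2B5 and EIF6). RefSeq symbols served for start sites. Figures were drawn with matplotlib 3.10.9.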

Additional observations from a re-analysis of the deposited data

How the results depend on the processing

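The number of members called, 1 higher and 5 lower, depended on the libraries and the threshold, as did the share of all genes called, which was 16.0% in the reported fit, 4.80% to 21.2% with one library left out, 21.8% with voom, 17.0% and 15.9% with total-read and median-ratio scaling, 24.7% without GC and length trends, 25.9% at a mean of at least 5 FPKM, 6.16% without a filter, 12.2% with plain limma and 32.0% at an FDR under 0.05. Leaving out one library gave 0 to 3 higher and 1 to 8 lower members, 1 to 5 of the other translation genes in place of 5, and 0 to 28 ribosomal protein genes in place of 1. With an FDR under 0.05, 3 members were higher and 12 lower, and 10 other translation genes and 10 ribosomal protein genes were called. Voom on recovered reads called 2 higher and 9 lower members and 8 ribosomal protein genes. Scaling by total reads called 2 higher members and 5 ribosomal protein genes, and median-ratio scaling 2 ribosomal protein genes. The median over all genes shifted by -0.035 and 0.018 under these scalings. Removing the GC and length trends, 10 lower members, 8 other translation genes and 9 ribosomal protein genes were called. At a mean of at least 5 FPKM, where fewer genes are tested, 2 ribosomal protein genes were called. Without a filter, where more genes are tested, 3 other translation genes and 0 ribosomal protein genes were called by limma, the latter with 23 at an unadjusted p under 0.05. Limma without trend and robust fitting called 3 other translation genes and 0 ribosomal protein genes, with 15 of the latter at an unadjusted p under 0.05. The causes of these differences were not tested.

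With the replicate number as a block, limma called 4.07% of all genes (11.0% with the trends removed too) and 0 higher and 0 lower members (3 and 13 at an unadjusted p under 0.05), 1 other translation gene and 0 ribosomal protein genes (18). With this block and the trends removed, 0 higher members (5 at an unadjusted p under 0.05) and 3 lower members were called. The share of all genes at an unadjusted p under 0.05 was not computed for the alternative fits, so such counts have no background here. The replicate numbers do not pair the libraries: the correlations of the deviations of same-numbered libraries were -0.171, -0.0177 and -0.0174. Taken within same-numbered pairs, the paralog shares have the same mean differences by arithmetic (-1.35, 0.183 and 0.615 percentage points), so this is no check of them. As shares of recovered reads they differed by -0.531, 0.359 and 0.359 points.

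The median log2 fold change of the members stayed between -0.207 and -0.097. Direction turned in 21 of 813 single-gene values, all of them of 8 members that were called neither in the reported fit nor under any of 16 alternatives. EEF1A2 was at -0.030 to 0.220 with one library left out, the lowest without MIR21-KO replicate 1, and at -0.058 with the trends removed, with or without the block. With the trends removed, again with or without the block, EIF2A was at 0.115, EIF2S3 at 0.0017, EIF3E at 0.130, EIF3G at -0.017 and EIF5A2 at 0.174. With one library left out, EIF3G was at -0.038 to 0.233, EIF2B4 at -0.154 to 0.080 and EIF3K at -0.151 to 0.113. The turned values were those without MIR21-KO replicate 1 for EIF3G and without MIR21-KO replicate 3 for EIF2B4 and EIF3K. EIF5A2 was at -0.112 to 0.067 with one library left out, above 0 without Ctrl replicate 1 or 3 or MIR21-KO replicate 1 or 2, and at 0.0060 with median-ratio scaling. Members with few reads, such as EEF1E1 and EIF5A2, are the least precise. The members under 5 FPKM have no value under that filter.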
